A study of Homo sapiens with 6 samples.

Results

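The D-type cyclins, their kinases CDK4 and CDK6, the CDK inhibitors and the pocket proteins set the pace at which a cell leaves the G1 phase. D-type cyclins accumulate in response to growth signals and bind CDK4 or CDK6, and the active kinases phosphorylate the retinoblastoma protein and its relatives p107 and p130, which then release E2F transcription factors. INK4 inhibitors bind CDK4 and CDK6 directly, whereas CIP/KIP inhibitors bind complexes of cyclins and CDKs, and in breast cancer cyclin D1 and its kinases are well known as an oncogenic unit and a drug target. The genes described here are 10 members of this machinery (CCND1, CCND2, CCND3, CDK4, CDK6, CDKN1A, CDKN1B, CDKN2B, CDKN2C and RBL2) of 19792 listed genes. They were taken by symbol from a list that had been chosen by pathway with the outcome of the study's comparison known, and all 10 are present in the deposited table.

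The cells were BT-549, a human triple-negative breast cancer line, in which a tetracycline-controlled vector encodes an shRNA against WDR5 (BT549_tetWDR5 in the sample names) and a puromycin resistance marker. WDR5 is a shared subunit of the COMPASS enzymes that methylate histone H3 at lysine 4. Poly(A) RNA-seq was performed on 3 cultures with the vehicle (0.1% DMSO) and 3 with 500 ng/ml doxycycline (DOX), which induces the shRNA, and every culture carried the shRNA vector, so an effect of DOX itself cannot be told apart from silencing. Cells were treated for 7 days, a time that comes from the paper's supplement and not from the sample records. These libraries bear on how silencing of WDR5 alters transcription, within a paper on how the oncogenic protein MUC1-C regulates the SET1A form of COMPASS. The contrast of DOX with vehicle was not analysed here. The deposited table gives that contrast only as the authors' own fold changes and p-values, which were not used.

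What was analysed is the authors' mean normalized count, a single value for each gene that averages all 6 libraries, vehicle and DOX together. It measures how abundant the transcripts of a gene were in these cultures as a whole. It belongs to neither group, has no SD, and cannot show which group was higher or how far cultures differed, so no difference between genes given below was tested against the spread between cultures. The depth of each library is unknown. Over all 19792 genes, the authors' mean normalized counts sum to 26551206, with a median of 187 and an upper quartile of 1173.

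The label of the line was compared with marker genes. Mesenchymal genes were abundant, with authors' mean normalized counts of 47780 for VIM, which encodes vimentin, 30460 for FN1, 19660 for SPARC, 7333 for ZEB1 and 4093 for CDH2. The estrogen receptor gene ESR1 (0.790), the progesterone receptor gene PGR (0.801) and the epithelial gene EPCAM (1.30) were close to absent. The other luminal and basal genes ranged from 0.909 for KRT5 through 57.3 for KRT8 and 59.6 for CDH1 to 305 for TP63 and 435 for KRT18. ERBB2 was present at 1221, above the upper quartile of all genes, and the blood cell gene PTPRC and the endothelial gene PECAM1 were at 44.7 and 2.86. WDR5, the targeted gene, had a mean normalized count of 1143 over all 6 libraries, which does not check the silencing because both groups are in it.

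Of the 10 members, 9 exceeded the upper quartile of all listed genes (1173), as 25% of all genes do by definition, and 4 exceeded a mean normalized count of 3168, as 10% of all genes do. The exception was CCND2. The members were chosen by hand as working parts of the cycle, with the outcome of the study's comparison known. The choice may therefore not be independent of level, and these counts describe the list and were not tested. The median of the members was 2496 mean normalized counts, and the median percentile among all genes was 86.7. In sequence from the highest mean normalized count to the lowest, they were CDK4, CDKN2B, CDK6, CDKN2C, CCND1, CDKN1B, RBL2, CDKN1A, CCND3 and CCND2. A longer transcript yields more reads, so this sequence ranks reads and not transcripts. The plot of the members along the curve of all genes shows 9 of them on its upper part, above the upper quartile.

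**Figure D1:**
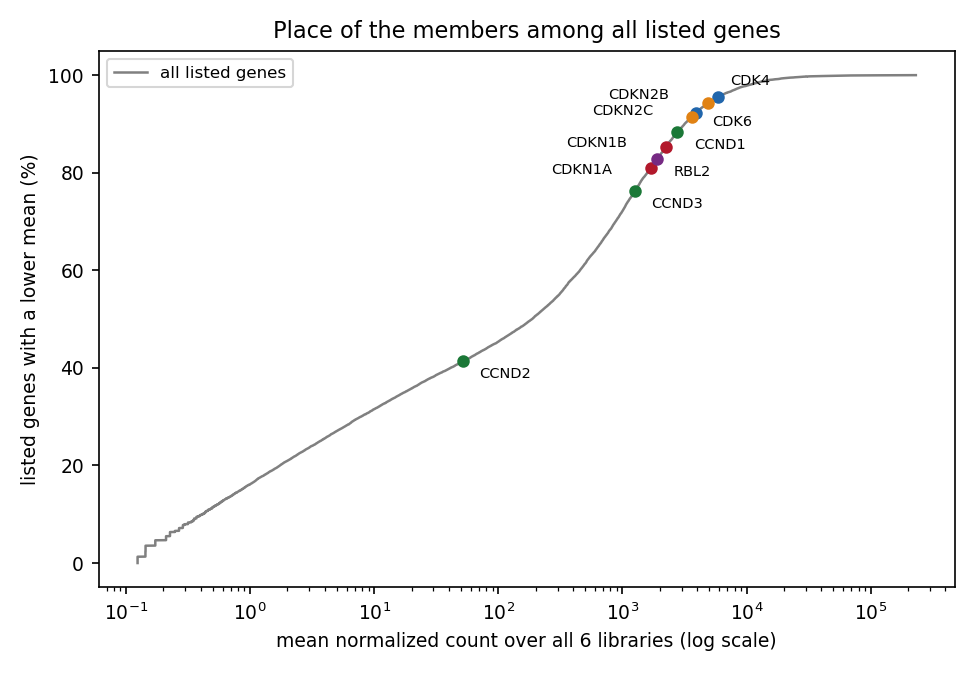
Mean normalized count over all 6 libraries (x axis, log scale) against the percent of the 19792 listed genes with a lower mean (y axis), for all genes (line) and the 10 members (points, coloured as D-type cyclins green, CDK4 and CDK6 blue, CIP/KIP inhibitors red, INK4 inhibitors orange and RBL2 purple). CCND2 sits at the 41.3 percentile, while the other members lie between 76.2 (CCND3) and 95.4 (CDK4).

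To compare genes with each other, each mean was divided by the length of all exons of the gene in kilobases (GENCODE 44 on GRCh38), which gives mean normalized counts per kb. The length of the longest coding transcript and that of the longest coding sequence served as other divisors, because it is unknown which isoform these cells used. Over the 18311 genes with a length, the median level was 49.4 per kb and the upper quartile 230.3 per kb. Per kb of all exons CDK4 was the highest member at 1899.7 per kb, followed by CDKN2B (1232) and CDKN2C (1197), and CCND2 was the lowest at 6.48 per kb. CCND1 and CDKN1A were close together at 579.7 and 566.3 per kb, and CDK6 (318), CDKN1B (241), RBL2 (234) and CCND3 (217) formed a group within a factor of 1.5 of each other. Whether neighbours in this order differ beyond the spread between cultures was not tested. With the longest coding transcript as divisor, CDK4, CDKN2B and CDKN2C kept the first 3 places and CCND2 the last. With the coding sequence as divisor the same genes held these places, but CDKN2B (11908 per kb) and CDKN2C (7169.9) came before CDK4 (6466).

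**Figure D2:**
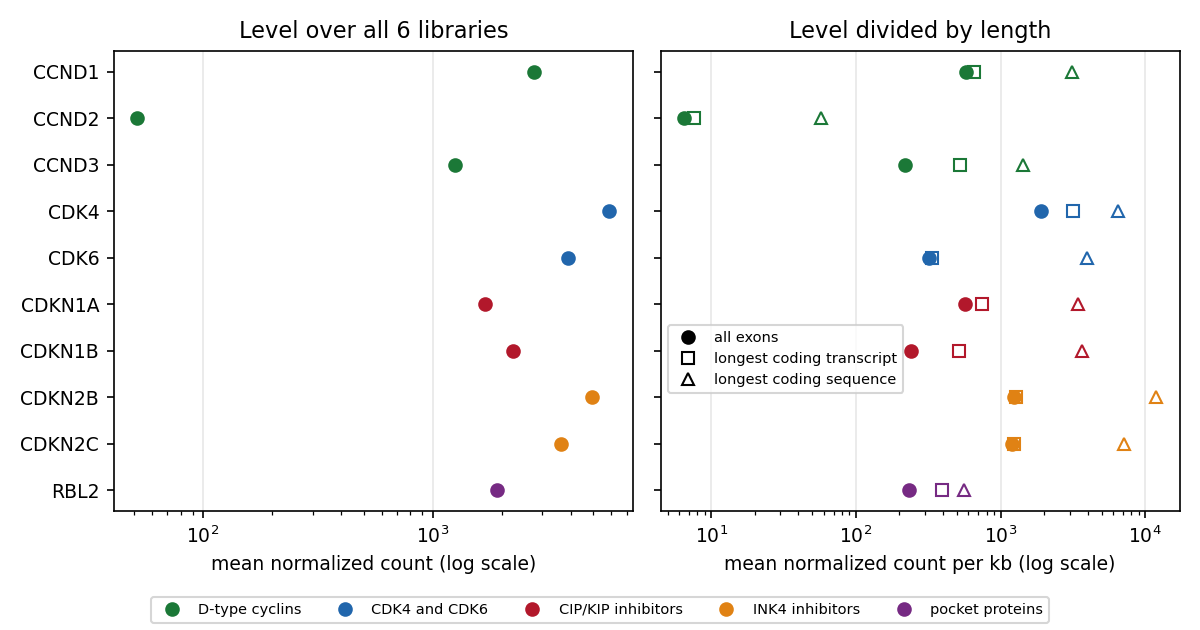
The 10 members with their mean normalized count over all 6 libraries (left, log scale) and the same count per kb (right, log scale), divided by the length of all exons (filled circles), the longest coding transcript (squares) or the longest coding sequence (triangles). CDK4, CDKN2B and CDKN2C lie furthest right by either transcript length, CCND2 lies far left on every scale, and the coding length moves CDKN1B most, from 241 to 3629.7 per kb.

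Among the D-type cyclins, which are the regulatory subunits that activate CDK4 and CDK6, CCND1 was the most abundant. Its mean normalized count was 2759.9, or 579.7 per kb, and it ranked 2321 of 19792 genes. CCND1 lies on chromosome 11 of GRCh38 from 69641156 to 69654474 on the plus strand. CCND3, on chromosome 6 from 41934934 to 42050357 on the minus strand, had a mean of 1252, or 217 per kb. CCND2, on chromosome 12 from 4269771 to 4305353 on the plus strand, had a mean of only 51.8, or 6.48 per kb. CCND1 thus accounted for 72.2% of the summed D-type cyclin level per kb, CCND3 for 27.1% and CCND2 for 0.807%. CCND1 was 89.4 times as abundant as CCND2 per kb of all exons and 54.7 times per kb of coding sequence.

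The lead of CCND1 over CCND3 was smaller and depended on length. The ratio of CCND1 to CCND3 was 2.67 per kb of all exons and 2.18 per kb of coding sequence, but 1.25 with the longest coding transcripts, since the annotated exons of CCND3 add up to 5761 bases whereas its longest coding transcript has 2394. CCND2 was the member at the lowest level on each of the 4 scales. Of the exonic bases of CCND2, 12.5% also belong to an unnamed protein-coding gene model on the same strand (ENSG00000285901), and 11.9% of its windows of 50 bases occur in transcripts of other genes. How the authors' counter treated reads from such windows is not given in the sources used here.

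CDK4 and CDK6 are the catalytic partners of the D-type cyclins and can each bind any of them. CDK4 had the highest mean normalized count of the members at 5878, or 1899.7 per kb, and ranked 902 of all genes. It lies on chromosome 12 from 57747727 to 57756013 on the minus strand. CDK6, on chromosome 7 from 92604921 to 92836573 on the minus strand, had a mean of 3886, or 318 per kb. CDK4 exceeded CDK6 on every scale, but by very different factors. The ratio was 1.51 in mean normalized counts, 1.63 per kb of coding sequence, 5.98 per kb of all exons and 9.46 per kb of the longest coding transcript. CDK6 has a long untranslated part, with 8.39% of its 11663-base longest coding transcript coding for protein, against 48.7% of the 1865 bases of CDK4. TSPAN31 lies on the opposite strand and overlaps 44.3% of the exonic bases of CDK4. TSPAN31 itself had a mean normalized count of 531, and whether the counting used strand is not given in the sources used here.

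The CIP/KIP inhibitors CDKN1A and CDKN1B encode p21, a target of p53, and p27, which restrains cyclin E and cyclin A complexes with CDK2. CDKN1A, on chromosome 6 from 36676460 to 36687337 on the plus strand, had a mean of 1697, or 566 per kb. CDKN1B, on chromosome 12 from 12685498 to 12722369 on the plus strand, had a mean of 2232, or 241 per kb. Which of them was higher turned with the scale. CDKN1A was 2.35 times CDKN1B per kb of all exons and 1.45 times per kb of the longest coding transcript, whereas the ratio was 0.950 per kb of coding sequence and 0.760 without a length. The annotated exons of CDKN1B add up to 9255 bases, more than its longest coding transcript of 4335. The third relative, CDKN1C, which encodes p57, was hardly detected with a mean normalized count of 7.20 and held 0.358% of the family's level per kb.

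The INK4 inhibitors CDKN2B and CDKN2C encode p15, known for its induction by TGF-beta, and p18. CDKN2B, on chromosome 9 from 22002903 to 22009305 on the minus strand, had a mean of 4929.9, or 1232 per kb, and ranked 1127 of all genes. CDKN2C, on chromosome 1 from 50960745 to 50974634 on the plus strand, had a mean of 3614, or 1197 per kb, and the ratio of CDKN2B to CDKN2C was 1.03 by either transcript length, 1.66 per kb of coding sequence and 1.36 without a length. CDKN2A, the neighbour of CDKN2B that encodes p16 and ARF from overlapping reading frames, is not a member but was higher than either at 7560.2, or 1946 per kb. CDKN2A was 1.58 times CDKN2B per kb of all exons and 5.62 times per kb of the longest coding transcript. The longest coding transcript of CDKN2A is short, with 1052 bases (37.6% of them coding) against 3885 for all its exons. Whether these cells used that transcript is unknown, and the count does not separate p16 from ARF. CDKN2D, which encodes p19, was lower at 220.4, or 146 per kb. CDKN2B and CDKN2C held 27.3% and 26.5% of the summed INK4 level per kb, CDKN2A 43.0% and CDKN2D 3.24%.

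For the members other than CDKN2B, windows of 50 transcript bases were searched in the transcripts of other genes, since reads within a shared window cannot be assigned with certainty. For CCND1, CDK6, CDKN1A, CDKN1B and CDKN2C no window of 50 bases occurred in a transcript of another gene. The shared windows of CCND3 (0.133%), CDK4 (0.117%) and RBL2 (0.826%) were few as well. Exons on the opposite strand are a separate matter. LTO1 (listed under its older symbol ORAOV1, mean 358.6) overlaps 10.4% of the exonic bases of CCND1, and AKTIP (mean 240.6) overlaps 7.51% of those of RBL2. For CDKN2C, an unnamed lncRNA on the opposite strand (ENSG00000290102) covers 20.4% of the exonic bases. CDKN2B-AS1, the antisense RNA of the locus, had a mean of 303.8 and shares no exonic base with CDKN2B in this annotation. It does overlap 15.3% of the exonic bases of CDKN2A, on the opposite strand.

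RBL2 encodes p130, the pocket protein that represses cell cycle genes in resting cells as a part of the DREAM complex. It lies on chromosome 16 from 53433977 to 53491648 on the plus strand and had a mean of 1898, or 234 per kb. Its relatives RBL1 (p107) and RB1 had means of 1757 and 1241, or 295 and 193 per kb. The 3 genes were thus near each other, with RBL2 at 32.4% of their summed level per kb, RBL1 at 40.9% and RB1 at 26.7%. RBL2 was 1.21 times RB1 per kb of all exons and 1.5 times per kb of the longest coding transcript. Against RBL1 the direction turned with the scale, from 0.793 per kb of all exons to 1.26 per kb of the longest coding transcript.

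**Figure D3:**
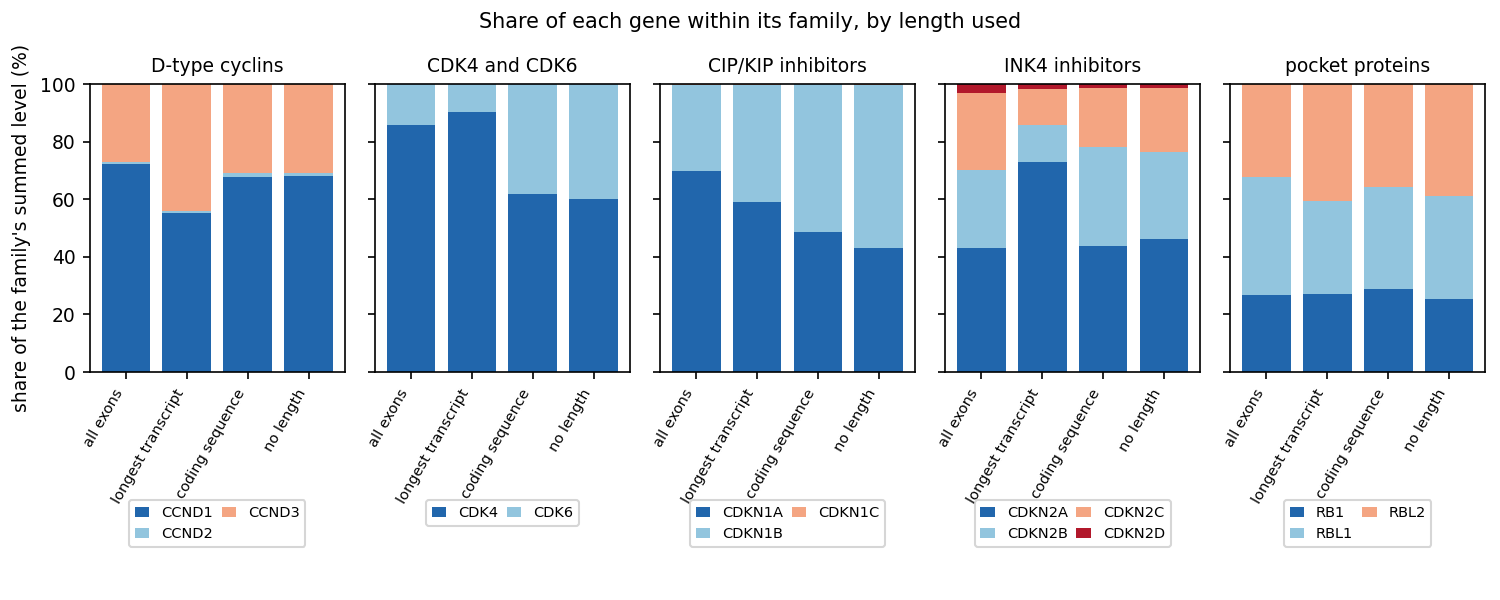
Share of each gene in its family's summed level over all 6 libraries (y axis, percent), with the mean normalized count divided by the length of all exons, the longest coding transcript or the longest coding sequence, or left undivided (x axis). CCND1, CDK4 and CDKN2A lead their families in all 4 bars, while the lead passes from CDKN1A to CDKN1B and from RBL1 to RBL2 with the length used.

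Set against each other by role, the transcripts of the kinases outweighed those of the D-type cyclins. The summed level of CDK4 and CDK6 was 2217 per kb of all exons against 803.5 for the 3 D-type cyclins, a ratio of 2.76, which lay between 2.27 and 2.95 with the other lengths. The 4 INK4 genes summed to 4522 per kb, 2.04 times the 2 kinases and 5.63 times the D-type cyclins. With the longest coding transcript these ratios were 2.83 and 8.35, and with the coding sequence 3.32 and 7.52. The CIP/KIP genes summed to 810.4 per kb, which is 1.01 times the D-type cyclins. With the coding length this last ratio was 1.54. The order INK4, then kinases, then D-type cyclins held with all 3 lengths for these sums. CDKN2A, which is not a member, made up 43.0% of the INK4 sum per kb of all exons. Its part was 72.85% with the longest coding transcript and 43.6% with the coding sequence. The count of CDKN2A does not tell p16 transcripts from ARF transcripts. How much of the INK4 sum, and of its ratios, rests on ARF transcripts is therefore unknown. By the longest coding transcript, CDKN2B (1279 per kb) and CDKN2C (1244 per kb) together would not reach CDK4 alone (3152 per kb). The place of INK4 above the kinases thus depends on CDKN2A with that length. The family sums are of RNA over both groups and say nothing about the amounts of protein.

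The surrounding pathway was described by 43 further genes of the G1 to S transition. All 43 were listed, 41 lay above the median of all genes and 22 above the upper quartile, and their median mean normalized count was 1184 against 2496 for the members. Among the cyclins and kinases that act after the D-type cyclins, CDK1 had the highest mean normalized count (3147, or 805 per kb). CDK2 (2883 mean normalized counts, 742 per kb) and CCNA2 (2869, or 1044 per kb), the S phase cyclin, exceeded CCNE2 (1363, or 309.9 per kb) and CCNE1 (237, or 96.5 per kb). All 8 E2F genes were above the median, from 381 for E2F8 to 2269.5 for E2F3. TFDP1, the DNA-binding partner of E2F proteins, had a mean of 5077. The 3 genes of the CDK-activating kinase, which phosphorylates CDK4 and CDK6, lay between 1184 (CCNH) and 1599.5 (CDK7), all above the upper quartile. AMBRA1, the adaptor that marks D-type cyclins for degradation, had a mean of 1047. Only CCNA1, a cyclin of the germ line, and CDKN1C fell below the median.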

How the data were processed

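RNA-seq was performed on 6 cultures, 3 with vehicle and 3 with DOX. By the paper's methods, the authors made stranded mRNA libraries, used STAR to align the reads to GRCh38 and normalized the counts with DESeq2. The gene counter is not given in the sources used here. RNA was extracted with a column kit by the sample records and with Trizol by the paper.

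The deposited table holds 1 row for each gene symbol. Its mean normalized count (a signal value) was obtained by the authors with DESeq2 from all 6 libraries. The other columns of the deposited table are the authors' comparison of DOX with vehicle (log2 fold change, its standard error, the Wald statistic, and p-values with and without adjustment), and they were not used. The table holds no column of a single sample, so the planned count test, replicates and depth could not be examined.

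Genes were ranked over all 19792 symbols. Lengths came from GENCODE 44, to which 17729 symbols matched directly and 582 by a RefSeq synonym, among them all 10 members. Windows of 50 bases of each gene's transcripts were searched in the transcripts of all other genes on the same strand. CDKN2B was left out of this search, and its result is not reported here. The functions for ranks and lengths were tested on simulated data. All members and the 43 pathway genes were chosen with earlier results of these data known. The genes named are the members, WDR5, their family relatives, examples of the pathway list, marker genes and overlapping genes. The examples and the markers shown were picked after their values were seen. Computation used matplotlib 3.10.9, pandas 2.3.3, scipy 1.17.1 and numpy 2.4.6 in Python 3.11.15.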

Additional observations from a re-analysis of the deposited data

How the results depend on the processing

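No paired analysis was possible because the table analysed has no values of single samples, and leaving out a replicate could not be done for the same reason. The median percentile of the 10 members, 86.7 among all listed genes, was 80.6 among the 13548 genes whose mean reached at least 10 normalized counts and 84.5 when genes were ranked per kb. The median level of 442 per kb of all exons was 587 per kb of the longest coding transcript and 3539 per kb of the longest coding sequence, since coding sequences leave out the untranslated exons that also give reads. Of the 5 families, 4 had the same leading gene with the longest coding transcript, and 3 had it with the coding sequence or without division by length. The changes were in the CIP/KIP genes and the pocket proteins. For single members, the share within the family moved by more than 1.5 times for 3 of 10 with the longest coding transcript, for 3 with the coding sequence and for 4 without a length. The level per kb moved by more than 1.5 times for 4 of 10 with the longest coding transcript and for all 10 with the coding sequence. Percentiles of single members moved too. CCND2 went from 41.3 to 14.3 among genes with a mean of at least 10, and CDK6 from 92.2 to 80.5 when ranked per kb. Depth sets no stated limit here, because neither library sizes nor errors of the means were analysed.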
